A study of Drosophila melanogaster with 3 samples.

Results

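The aminoacyl-tRNA synthetase genes of the fly were examined for CG10543 binding at their transcription start sites. The members were chosen by symbol alone: protein-coding genes named by a three-letter amino acid code followed by RS, with or without the suffix -m or a Greek subunit name, plus GluProRS. This gave 35 of the 13945 protein-coding genes, 20 without the suffix and 15 with it. The binding data are chromatin immunoprecipitation sequencing (ChIP-seq) of whole embryos of both sexes, 0 to 24 h old, in 3 biological replicates of a single group. The line is transgenic and stably expresses CG10543 with a C-terminal eGFP tag, which was pulled down with an anti-GFP antibody. The labels do not give the promoter that drives the fusion. The chromatin was sheared by sonication. No sample without the tag was analysed here, so tag-independent signal cannot be told apart from binding, and whole embryos mix all cell types. Peaks were taken from the deposited IDR list (irreproducible discovery rate, a measure of how alike replicates rank regions), with 7545 peaks on dm6. A peak in it need not be strong in every replicate. For the 13 IDR summits at members, the strongest 7545 regions of each replicate were searched within 200 bp. All 3 replicates held 5 of these summits, 2 replicates held 7, and 1 replicate held 1. At each bound member the IDR rank was also the rank in the pooled list. Each replicate list and the pooled list held 30000 ranked regions, of which 12593, 7016 and 7612 had a q-value under 0.01 in replicates 1, 2 and 3. In the pooled list, deposited as peaks and background together, 10156 did.

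Aminoacyl-tRNA synthetases join each amino acid to its transfer RNAs, which carry it to the ribosome. The enzymes without a suffix serve translation in the cytoplasm, and the -m enzymes, also encoded in the nucleus, are imported to charge the transfer RNAs of mitochondria. Where a fly genome has no -m gene for an amino acid, a single gene may supply both compartments, so the suffix is a name rather than a measured location. GluProRS joins the glutamyl and prolyl enzymes in 1 polypeptide, and alpha-PheRS and beta-PheRS encode the subunits of the cytoplasmic phenylalanyl enzyme.

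At most of the bound genes the summit lay between the start of the synthetase gene and that of a neighbour on the other strand, and such sequences are given first. Shown here are the bases around the IDR summits of 4 cytoplasmic genes and of ArgRS-m, read from the RefSeq copy of Release 6 (dm6 coordinates), 5′ to 3′ on the strand of the synthetase gene and limited to sequence outside exons. Capitals mark matches to the motifs TATAAA and GAGAG or their reverse complements. The AsnRS window is chr2L:19131955-19132145, that of IleRS chr3L:22288398-22288598, that of ThrRS chr2L:12103394-12103594, that of GluProRS chr3R:23958470-23958650 and that of ArgRS-m chr3R:7886820-7887020. The summit is base 81 of the GluProRS window and base 101 of the others. AsnRS and GluProRS lie on the minus strand and the others on the plus strand.
AsnRS: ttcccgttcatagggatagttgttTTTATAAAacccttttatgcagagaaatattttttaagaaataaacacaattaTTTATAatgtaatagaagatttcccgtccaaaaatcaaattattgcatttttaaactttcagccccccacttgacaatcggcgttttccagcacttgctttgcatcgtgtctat
IleRS: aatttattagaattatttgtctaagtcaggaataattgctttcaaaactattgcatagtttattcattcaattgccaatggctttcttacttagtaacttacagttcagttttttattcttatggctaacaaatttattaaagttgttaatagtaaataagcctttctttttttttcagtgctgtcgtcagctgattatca
ThrRS: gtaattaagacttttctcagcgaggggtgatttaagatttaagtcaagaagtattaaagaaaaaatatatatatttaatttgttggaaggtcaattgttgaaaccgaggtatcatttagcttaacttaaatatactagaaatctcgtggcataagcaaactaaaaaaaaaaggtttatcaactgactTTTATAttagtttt
GluProRS: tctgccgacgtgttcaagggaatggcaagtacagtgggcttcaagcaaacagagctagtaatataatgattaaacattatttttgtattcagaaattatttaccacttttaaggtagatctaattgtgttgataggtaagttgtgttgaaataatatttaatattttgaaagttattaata
ArgRS-m: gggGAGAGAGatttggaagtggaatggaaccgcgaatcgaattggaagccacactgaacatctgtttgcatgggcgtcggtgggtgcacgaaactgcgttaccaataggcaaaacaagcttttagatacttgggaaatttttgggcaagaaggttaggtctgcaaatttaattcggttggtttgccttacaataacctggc

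Most of the synthetase genes called bound were cytoplasmic, by a rule that does not ask whose start is nearest to the summit. A gene is called bound here if at least 1 of its annotated starts had an IDR summit no more than 500 bp away. By this rule 9 of the 20 cytoplasmic genes were bound (45.0%; exact 95% interval 23.1 to 68.5%): SerRS, IleRS, ThrRS, AsnRS, GluProRS, AspRS, MetRS, GlyRS and ValRS. Of the 15 mitochondrial genes 1 was bound, ArgRS-m (6.67%; exact 95% interval 0.169 to 31.9%). Among all protein-coding genes the share was 27.9%. The family as a whole, with 10 of 35 bound (28.6%), thus stood at the background, and the cytoplasmic and mitochondrial shares lay on either side of it, 38.3 percentage points apart. The interval of the cytoplasmic share holds the background value, and so does that of the mitochondrial share. With each summit counted for its nearest start only, 2 of 20 cytoplasmic and 1 of 15 mitochondrial genes were bound, beside 22.0% of protein-coding genes. Intervals cover the counting of genes only, and no test of the list was made.

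The same order was seen in each replicate. In each replicate list the strongest regions by signal, 7545 to equal the IDR set, were used in place of it. By these, 7 cytoplasmic and 1 mitochondrial gene were bound in replicate 1, beside 24.6% of protein-coding genes. In replicate 2 there were 12 cytoplasmic genes and 0 mitochondrial ones, beside 27.8% of protein-coding genes. In replicate 3 there were 9 and 1, beside 30.4%. The cytoplasmic share was thus higher in 3 of 3 replicates, by 28.3, 60.0 and 38.3 percentage points (mean 42.2 ± 16.2, SD, n = 3). The mean shares were 46.7% ± 12.6 for cytoplasmic and 4.45% ± 3.85 for mitochondrial genes (SD, n = 3), against 27.6% ± 2.89 of all protein-coding genes. The 6 genes AsnRS, AspRS, GluProRS, IleRS, SerRS and ThrRS were bound in all 3 replicates, which 18.1% of protein-coding genes were. They are 30.0% of the cytoplasmic genes, and 0 of the 15 mitochondrial genes were bound in all 3. IDR peaks were also limited to those found within 200 bp among the strongest regions of replicates 1 and 2. Replicate 3 was left out of this limit, though not of the IDR list. The cytoplasmic count was then 5 and the mitochondrial count 0. The share of protein-coding genes was lower as well under this limit, at 18.2%.

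**Figure D1:**
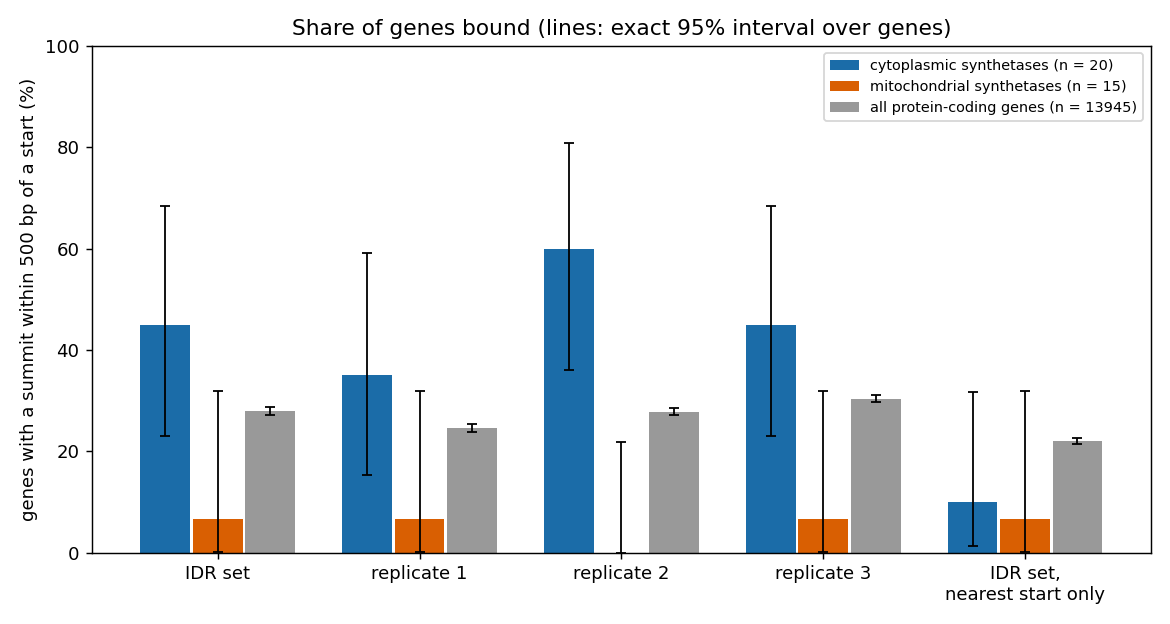
Share of genes (percent, vertical axis) with a summit within 500 bp of a start site, for cytoplasmic synthetases, mitochondrial synthetases and all protein-coding genes. Bars on the left use the IDR set, the next 3 the strongest 7545 regions of each replicate, and those on the right count each IDR summit for its nearest start only; lines are exact 95% intervals over genes. The cytoplasmic share is the highest of each set except on the right, where 2 of 20 genes are bound and the bar lies below the protein-coding share of 22.0%.

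SerRS, the seryl enzyme (FBgn0031497, dm6 2L, 3035493 to 3037403, minus strand), had the strongest peak. Its summit at 3037415 lay 12 bp upstream of the SerRS start, in the 5′ UTR of CG17260, which starts 4 bp from the summit on the other strand. The region ranked 656 of the 7545 IDR peaks, with a signal value of 794.4 in the authors' list, and 1694, 417 and 728 in replicates 1, 2 and 3. IleRS, the isoleucyl enzyme (FBgn0027086, 3L, 22288665 to 22292810, plus strand), followed at rank 739. Its summit at 22288498, shown above, lay between genes, 167 bp from the IleRS start and 303 bp from that of Hem, a subunit of the WAVE actin-regulating complex. It ranked 1055, 604 and 896 in the replicates, the smallest spread among the 9 bound genes with a region in every replicate (mean 852 ± 229, SD, n = 3).

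ThrRS, the threonyl enzyme (FBgn0027081, 2L, 12103751 to 12107170, plus strand), had its summit at 12103494, 257 bp from its own start and 209 bp from that of Patsas. This peak stood at rank 992 of the IDR set and at ranks 3631, 779 and 634 in the replicates. AsnRS, the asparaginyl enzyme (FBgn0086443, 2L, 19129469 to 19131954, minus strand), had its summit at 19132045, 91 bp from its own start and 278 bp from that of DCTN6-p27, which encodes a dynactin subunit. Its IDR rank was 1348 and its replicate ranks 2575, 1670 and 939. GluProRS (FBgn0005674, 3R, 23952136 to 23958391, minus strand) had its summit at 23958570, 179 bp from its own start and 81 bp from that of AP-1sigma, a clathrin adaptor subunit. It stood at rank 1424, and its region was much weaker in replicate 1 (6803) than in replicates 2 and 3 (1063 and 797).

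AspRS, the aspartyl enzyme (FBgn0002069, 2R, 12877004 to 12883168, plus strand), was the only member with more than 1 IDR summit near its starts. It had 4, in 2 places. The summits at 12876592 and 12876803 lay 412 and 201 bp upstream of its first start, both nearer to Lfg and both at exonic bases of the antisense gene asRNA:CR43468, with ranks 1782 and 4148. The summits at 12879943 and 12880142 lay at intronic bases of AspRS, 341 and 142 bp upstream of an internal start and nearer to Nmda1, a gene on the other strand, with ranks 1598 and 2375. In replicate 1 the strongest of these regions was the one at Lfg (rank 387), and in replicates 2 and 3 it was the one at Nmda1 (ranks 910 and 749). The place of the strongest AspRS signal therefore differed between replicates.

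The remaining bound cytoplasmic genes were weaker or less even. MetRS, the methionyl enzyme (FBgn0034401, 2R, 18846858 to 18850599, minus strand), ranked 2277 in the IDR set and 1524 and 2001 in replicates 2 and 3, but replicate 1 listed no region within 500 bp of its start. Its summit at 18850742 lay 143 bp from its own start and 102 bp from that of CG15084. GlyRS, the glycyl enzyme (FBgn0027088, 3L, 15095142 to 15097686, plus strand), ranked 4114, and 11513, 4644 and 3057 in the replicates. Its summit at 15094903 lay 239 bp from its own start and 179 bp from that of Plp, the pericentrin-like protein of centrosomes. ValRS, the valyl enzyme (FBgn0027079, 2R, 13198850 to 13202709, plus strand), was the weakest of the bound genes, at rank 7147 of 7545, with replicate ranks of 8631, 4666 and 23063. Its summit at 13198446 lay 404 bp from its own start and 109 bp from that of Kdm4B, a histone demethylase gene.

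Among mitochondrial genes the bound member was ArgRS-m, the mitochondrial arginyl enzyme (FBgn0037526, 3R, 7887045 to 7890150, plus strand). Its summit at 7886920, also shown above, lay 125 bp from its own start and 187 bp from that of CG17816. It ranked 3147 of the IDR set, and the strongest region within 500 bp of the ArgRS-m start ranked 3925, 8913 and 1950 in the replicates. Replicate 1 listed 2 summits within that distance. The stronger of them, at 7886686, lay more than 200 bp from the IDR summit. ArgRS, the cytoplasmic counterpart of ArgRS-m, was not bound. For asparagine, aspartate, isoleucine, methionine, serine, valine and the GluProRS pair of amino acids the reverse held, with the cytoplasmic gene bound and the mitochondrial gene or genes not. Among cytoplasmic genes with an -m counterpart 7 of 15 were bound, and among the 5 with none (GlnRS, GlyRS, HisRS, LysRS and ThrRS) 2 were.

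The median IDR rank of the strongest summit was 1511 for the 10 bound members and 2793 for the 3895 bound protein-coding genes. Of the members' peaks 8 (80.0%) were among the 3772 strongest, against 63.1% for all bound genes. The bound members thus ran from strong to marginal, with ValRS near the end of the IDR set.

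**Figure D2:**
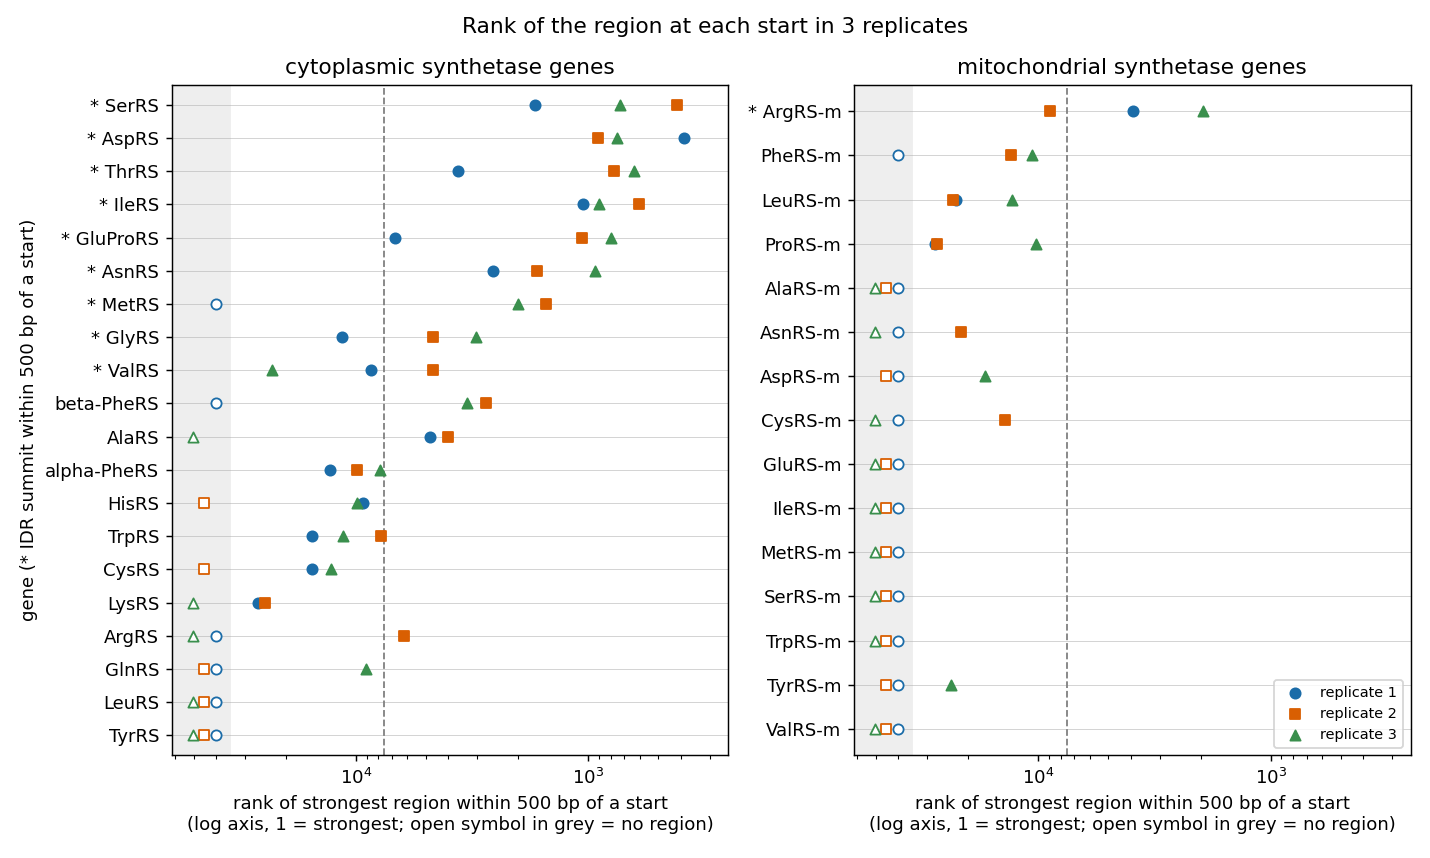
Rank of the strongest region within 500 bp of a start in each replicate (log axis, 1 is the strongest and lies to the right), for the 20 cytoplasmic and 15 mitochondrial genes; an open symbol in the grey band means that the list of 30000 holds no such region, and the dashed line marks rank 7545. Asterisks mark bound genes. The 6 uppermost cytoplasmic genes lie to the right of the line in all 3 replicates, and ArgRS-m is the only mitochondrial gene with a point there.

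Any region of the pooled list, bound genes included, lay within 500 bp of a start at 16 of 20 cytoplasmic genes (80.0%). The same held for 4 of 15 mitochondrial genes (26.7%) and 49.0% of protein-coding genes. Of the 25 members that were not bound, 7 cytoplasmic and 3 mitochondrial genes had a weaker pooled region, and 4 and 11 had none. The share among all protein-coding genes that were not bound was not computed. Once a gene had a pooled region, it was bound in 9 of 16 cytoplasmic cases (56.2%), beside 57.0% of all such genes, and in 1 of 4 mitochondrial cases. The 7 cytoplasmic genes with a weaker pooled region were AlaRS, CysRS, GlnRS, HisRS, LysRS, TrpRS and alpha-PheRS, with pooled ranks from 8179 to 25989. Their pooled q-values ran from 0.00214 (AlaRS) to 0.461 (GlnRS) and were under 0.01 at AlaRS, TrpRS and alpha-PheRS only. The 3 mitochondrial ones were LeuRS-m, PheRS-m and ProRS-m, with pooled ranks from 8382 to 15256 and q-values of 0.0728, 0.00304 and 0.0851. In 7 mitochondrial genes (AlaRS-m, GluRS-m, IleRS-m, MetRS-m, SerRS-m, TrpRS-m and ValRS-m) and 2 cytoplasmic ones (LeuRS and TyrRS) no region was listed in any replicate. AsnRS-m and CysRS-m had a weak region in replicate 2 only (q-values 0.467 and 0.156), and AspRS-m and TyrRS-m in replicate 3 only (0.262 and 0.552).

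Of the genes that were not bound, 3 had a region among the strongest 7545 of some replicate. AlaRS, the alanyl enzyme, ranked 4802 and 4004 in replicates 1 and 2, while replicate 3 listed no region within 500 bp. ArgRS ranked 6233 in replicate 2 only. beta-PheRS ranked 2752 in replicate 2 and 3332 in replicate 3, with q-values of 0.000144 and 0.000126, but neither replicate 1 nor the pooled list held a region within 500 bp of its start. In replicate 2 this was ahead of the bound genes GlyRS (4644), ValRS (4666) and ArgRS-m (8913). In replicate 3 it was behind GlyRS (3057) and, among bound genes, ahead of ValRS (23063) only. Of the 5671 regions that were among the strongest 7545 in both replicates 2 and 3, 81 (1.43%) had no pooled summit within 500 bp. Among members without a summit inside the distance, HisRS at 775 bp and LeuRS-m at 835 bp were the nearest to an IDR summit.

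Every bound member shared its summits with another gene. All 13 summits lay upstream of the nearest synthetase start, within 500 bp of a protein-coding start on the other strand. Of these, 8 lay between genes, and 10 lay between the synthetase start and the start of the neighbour nearest the summit. The median distance was 179 bp to the synthetase start and 145 bp to the neighbour. Among all bound protein-coding genes, 46.0% had each of their summits within 500 bp of another protein-coding gene. The synthetase start was the nearer one for AsnRS, IleRS and ArgRS-m only, so 3 of the 10 bound members (30.0%) owned a nearest start, against 78.9% of all bound genes. All 10 were in head-to-head pairs, as defined below, while 2059 of the 3895 bound protein-coding genes were. The 46.0% and 78.9% therefore include genes without such a partner, and the shares among bound head-to-head genes alone were not computed. With each summit counted for its nearest start alone, 2 of 20 cytoplasmic and 1 of 15 mitochondrial genes were bound, beside 22.0% of protein-coding genes, and the difference between compartments was 3.33 percentage points. Which of the paired genes a summit serves was not tested.

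**Figure D3:**
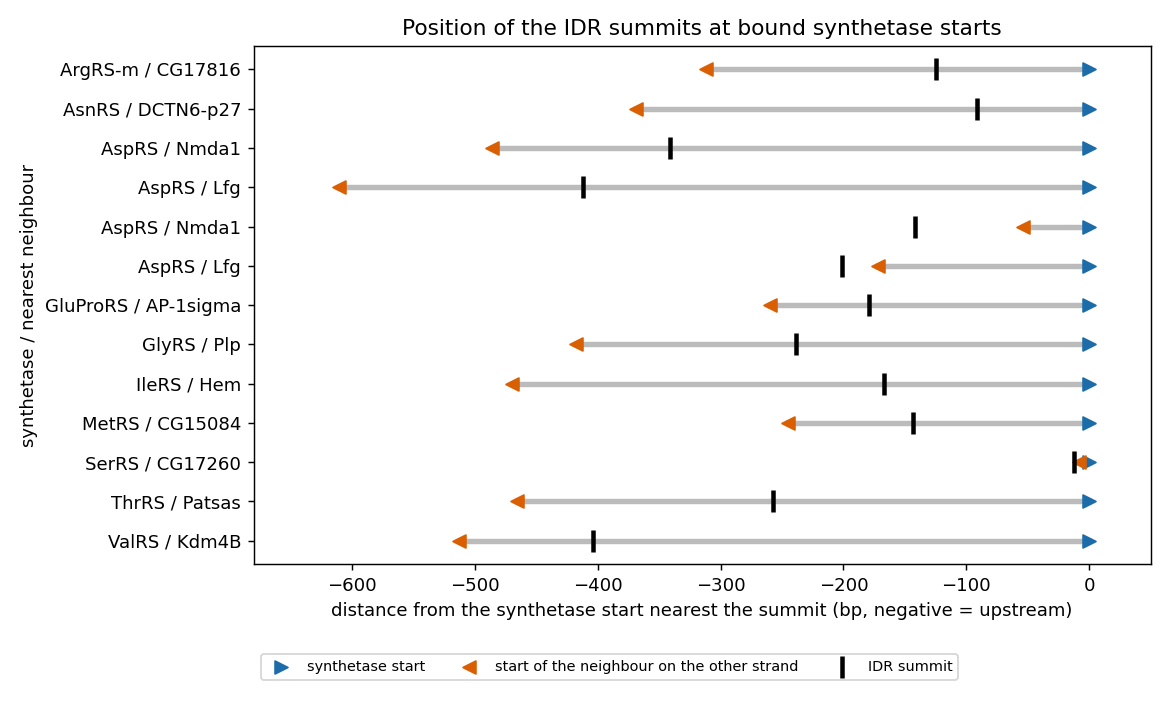
Position of the 13 IDR summits at the 10 bound synthetase genes, in bp from the synthetase start nearest the summit (horizontal axis, negative is upstream; the synthetase is drawn from left to right). Grey bars join that start to the start of the neighbour nearest the summit, on the other strand. Each black mark lies upstream of the synthetase start, from 12 bp at SerRS to 412 bp at AspRS.

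Head-to-head pairs were common in the family, and all of its IDR summits within 500 bp of a start lay at them. A gene was called head-to-head when, at any of its starts, the nearest upstream protein-coding start was on the other strand within 1000 bp. This held for 16 of 20 cytoplasmic genes (80.0%) and 7 of 15 mitochondrial genes (46.7%), against 34.2% of protein-coding genes. Among head-to-head genes 9 of 16 cytoplasmic (56.2%) and 1 of 7 mitochondrial members (14.3%) were bound, beside 43.1% of protein-coding genes. Of the 12 members that were not head-to-head 0 were bound (exact 95% interval 0 to 26.5%), beside 20.0% of protein-coding genes. This holds for the IDR set only. By the strongest regions of each replicate, AlaRS and beta-PheRS, which are not head-to-head, were bound in 2 replicates each. The compartments therefore differed in how their genes are placed as well as in binding, and the part of gene placement in the difference was not tested.

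Within the head-to-head members, the bound ones had wider gaps to the neighbour. The distance between the nearest paired starts had a median of 340.5 bp in the 10 bound members and 166 bp in the 13 others, and the groups overlapped, from 8 to 513 bp and from 35 to 331 bp. Of the 13 members with a gap over 200 bp 8 were bound (61.5%), and of the 10 with a shorter gap 2 were, SerRS at 8 bp and AspRS at 38 bp. These counts pool compartments that differ in both gap and binding. Among cytoplasmic genes alone 7 of 11 with a gap over 200 bp (63.6%) and 2 of 5 with a shorter one (40.0%) were bound, and 4 of the 7 that were not bound had a gap over 200 bp. Mitochondrial pairs were mostly close, with AlaRS-m 35 bp from Fitm, AsnRS-m 53 bp from ste24a and TyrRS-m 55 bp from CG3589, and ArgRS-m had the widest mitochondrial gap, 312 bp. Over all protein-coding genes the median gap was nearly the same in bound and other head-to-head genes, 297 and 296 bp, while 45.9% with a gap over 200 bp and 36.8% with a shorter one were bound. The 200 bp boundary was set after the values were seen, so these counts are a description.

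**Figure D4:**
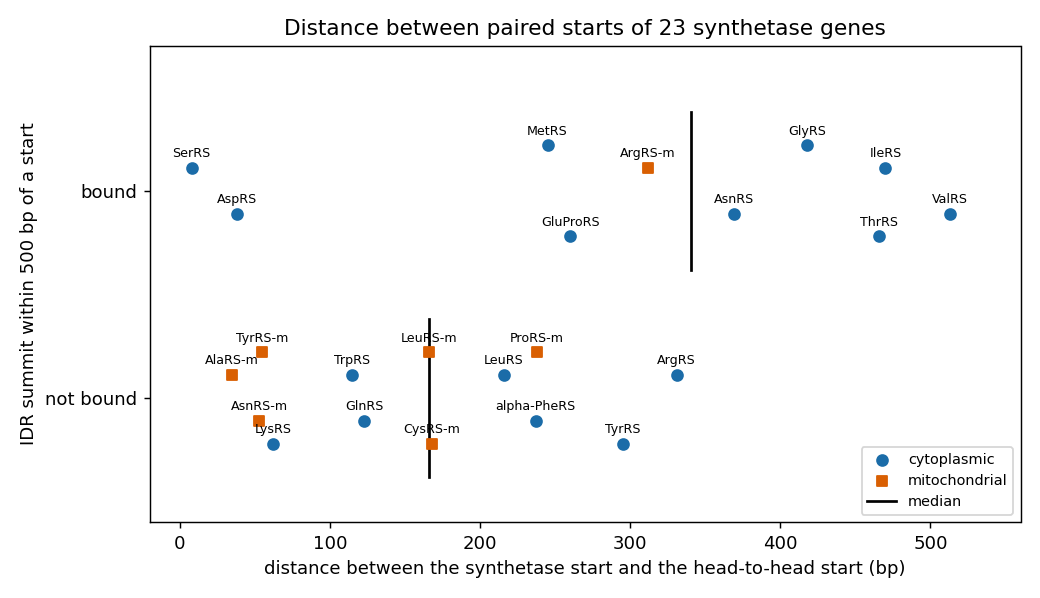
Distance in bp between the synthetase start and its head-to-head start (horizontal axis) for the 10 bound and 13 other head-to-head members, with cytoplasmic genes as circles, mitochondrial genes as squares and medians as vertical lines; vertical offsets within a row only separate the points. The median is 340.5 bp in the upper row and 166 bp in the lower.

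The bases at the members' summits were poor in G and C. In the 201 bp centred on each summit the G and C content had a median of 30.3% over the 13 summits, with a range from 26.9% to 47.8%, against a median of 42.8% over the 4129 IDR summits within 500 bp of a start. It was under 35% at 10 of 13 member summits (76.9%) and at 25.5% of the 4129, a boundary set after the values were seen. IleRS and ThrRS had the lowest value, 26.9%, and the exceptions were ArgRS-m at 45.8% and the summits of AspRS near Lfg at 38.8% and 47.8%. AspRS gives 4 of the 13 windows, and those at Nmda1 overlap, so the 13 are not independent. All 13 lay at head-to-head pairs, while the 4129 include summits at other starts. The G and C content at head-to-head summits alone was not computed.

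Matches to known promoter motifs were sought on both strands in the same windows. TATAAA, the TATA box letters, was found in 8 of 13 windows (61.5%), at AsnRS, AspRS, MetRS, SerRS, ThrRS and ValRS, and in 26.2% of the 4129. Among windows with under 35% G and C, however, the match was in 6 of 10 member windows and 53.0% of all. CGATA, the core of the BEAF-32 site, was in 5 of 13 (38.5%) and 35.1%, and GAGAG, which GAGA factor binds, in 2 of 13 (15.4%), at ArgRS-m and AspRS, and 30.7%. The cAMP response element TGACGTCA was found at 1 AspRS summit and in 0.581% of all. TATCGATA (the DNA replication-related element, which contains CGATA), GGTCACACT (Motif 1), the E-box CACGTG and TGATGCAA, letters of the type that ATF4 recognises, were in 0 of 13 windows, and in 4.09%, 2.59%, 2.69% and 0.242% of the 4129.

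In the 300 bp promoters, 250 bp before to 50 bp after the most 5′ start, TATCGATA was found at AlaRS, ArgRS, IleRS, TrpRS and PheRS-m, that is in 4 of 20 cytoplasmic and 1 of 15 mitochondrial genes, and in 9.36% of all protein-coding genes. GGTCACACT was found in 2 cytoplasmic genes (GlnRS and beta-PheRS) and 3 mitochondrial genes (AsnRS-m, AspRS-m and ProRS-m), and in 6.05% of all. TGATGCAA was in 0 of the 35 promoters and 0.817% of all. CGATA was in 15 of 20 cytoplasmic and 8 of 15 mitochondrial promoters, and in 47.4% of all. For TATAAA these values were 12, 7 and 45.8%, and for GAGAG 4, 2 and 29.7%. For CACGTG they were 1, 1 and 4.2%, and for TGACGTCA 0, 0 and 0.437%.

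Other divisions of the family were made after the values were seen and are given as counts. Synthetases fall into class I and class II by the fold of their catalytic domain. Of the cytoplasmic class I genes 3 of 9 were bound and of class II 5 of 10, with GluProRS, which holds an enzyme of each class, apart from these. Of the 8 cytoplasmic enzymes that form the multisynthetase complex described in mammals 4 were bound (GluProRS, IleRS, MetRS and AspRS), and of the other 12 there were 5. The X-linked members ArgRS, HisRS, LysRS and alpha-PheRS, all cytoplasmic, had 0 of 4 bound (exact 95% interval 0 to 60.2%), beside 28.1% of X-linked protein-coding genes. Members with several annotated starts were bound in 5 of 9 cases and those with 1 start in 5 of 26. The same shares over all protein-coding genes were 49.3% and 20.2%, and 7 of the 9 members with several starts were cytoplasmic.

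Among 22 other genes of transfer RNA charging and its sensing, 5 were bound (22.7%), near the background of 27.9%. Thor, which encodes the translation inhibitor 4E-BP, was the strongest at rank 447, ahead of eEF1alpha1, the factor that brings charged transfer RNA to the ribosome, at rank 1273. RNaseZ, which trims transfer RNA 3′ ends, ranked 1917. At these 3 genes the summit was nearest to their own start. CG2100, a transfer RNA nucleotidyltransferase gene, ranked 3101 and GatA, a subunit of the mitochondrial amidotransferase, 5347, and there a neighbour's start was nearer. The scaffold genes of the multisynthetase complex, AIMP1, AIMP2 and AIMP3, were not bound, nor were the kinase gene Gcn2 and the ATF4 gene crc.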

How the data were processed

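ChIP-seq regions of 3 biological replicates were deposited by the authors as ranked lists on dm6, 1 per replicate, 1 for the pooled replicates and 1 kept by IDR. Per the deposited notes, each replicate and the pool were called against 1 control alignment. Aligner, peak caller and settings were not given in the sources used here. For each region the authors deposited a signal value, which was compared only by its rank within its own list, and a −log10 q-value. No read counts are given, so depth is unknown. Lists on dm3 were not used.

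Starts came from Ensembl release 115 and bases from RefSeq Release 6. A replicate recovered a peak when summits lay within 200 bp. In each list 2 to 6 summits lay past their region's end and were used as given. Calls were tested on simulated summits. Python 3.11.15, pandas 2.3.3 and scipy 1.17.1 were used, with exact Clopper-Pearson 95% intervals. With 1 group no test was run. The members and lists were chosen with earlier results of these data known. Every member is named or counted, bound members with summit, neighbour and replicate ranks. Of 23 pathway symbols, 1 matched no gene. The alternatives, 11 in number, changed the start distance, the peak set, the starts counted, the replicates and the members.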

Additional observations from a re-analysis of the deposited data

How the results depend on the processing

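The 4 main values were 10 bound members, 9 cytoplasmic, 1 mitochondrial and a difference of 38.3 percentage points. With the nearest start only, where a summit counts for a single start, they were 3, 2, 1 and 3.33. In that setting 22.0% of protein-coding genes were bound, against 27.9% in the main result. With peaks recovered in all 3 replicates the counts were 5, 5 and 0, beside 17.0% of protein-coding genes. Leaving out each replicate meant keeping the IDR peaks found in both of the others. The IDR list itself still rests on all 3 replicates, so this is a stricter filter under which the counts could not rise. It gave 5 to 8 members, 5 to 8 cytoplasmic, 0 to 1 mitochondrial and a difference of 23.3 to 40.0 points. The protein-coding share was 22.5, 19.3 and 18.2% without replicates 1, 2 and 3. The lowest counts of members were without replicate 3, and the mitochondrial count was 0 without replicate 1 and without replicate 3. The mitochondrial count was 2 at 1000 bp and 2 with pooled regions of q under 0.01, beside 31.7% and 32.6% of protein-coding genes. The cause of these moves was not tested. The difference kept its direction in all 11 alternatives, but with the nearest start only it was 3.33 points and rested on 2 genes against 1. In that setting the cytoplasmic and the mitochondrial share were both below the 22.0% of protein-coding genes, rather than on either side of the background. All alternatives except the pooled regions used the IDR peaks or a part of them, so they are not independent of the main result. No paired analysis was possible because all samples belong to 1 group, so no samples of different groups share a replicate number. The compartments are sets of genes within each replicate, and their difference in each replicate was 28.3, 60.0 and 38.3 points. Depth is unknown, and the number of genes in each compartment limits the precision.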
